A study of Mus musculus with 8 samples.

Results

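The 10 genes described here are 9 transcription factors of the hair follicle, Msx2, Foxn1, Hoxc13, Dlx3, Lef1, Lhx2, Sox9, Sox21 and Gata3, and Shh, the secreted Sonic hedgehog signal. They were taken by symbol from the platform annotation, which gives 18 probe sets with 1 of these symbols and no other, among 45037 probe sets and 18193 genes in all. Each gene is described by its main probe set, the brightest one on average across the 8 arrays, and 7 of the 10 genes have further probe sets. RNA of dorsal skin from female mice of the hairless strain Hos:HR-1, aged 10 weeks per the labels, was measured on 1-colour arrays. The 4 collagen arrays come from mice kept for 1 week on the purified diet AIN-93G, each 100 g of which had been mixed with 2.0 g of a hydrolysate (a peptide digest) of collagen from fish scales. The 4 control arrays come from mice kept on AIN-93G alone for the same week. Of 8 mice per diet, housed 4 to a cage, 4 per diet have an array, called biological replicates by the labels. The labels do not say which mice and cages these were.

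Values are given on the deposited log2 scale, on which most probe sets hardly differed between arrays. The median range over the 8 arrays was 7.36e-06, and the labels do not say what narrowed it. Differences are therefore not turned into fold changes, and are given beside the within-group SD of the same probe set. Array medians lay between 8.19289 (collagen 1) and 8.19322 (collagen 3), and without detection calls the signal over background is unknown. Of the 10 main probe sets, 7 reached a mean of 8.193 or more (8.193 being the median over the means of all probe sets), and those of Msx2, Foxn1 and Shh lay below it, while 63.7% of all 18193 genes reached it. Marker lists were set beside this. A mean at or above 8.193 was reached by 7 of 8 epidermal, 13 of 14 inner root sheath and companion layer and 15 of 21 hair shaft genes measured. It was also reached by 6 of 6 bulge and follicle stem cell and 10 of 10 skeletal muscle markers, but by only 2 of 7 dermal papilla markers. The hair shaft count is near the 63.7% of all genes, and these counts do not measure follicle content. In whole skin, fewer cells of a type and less RNA per cell cannot be told apart.

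The hair follicle renews its lower part in cycles. In the growing follicle, matrix cells at the base divide beside the dermal papilla and give rise to the hair shaft and the inner root sheath around it, while stem cells of the bulge and the outer root sheath supply the matrix. Shh from the matrix and Wnt signals acting through Lef1 drive growth, and Msx2, Dlx3, Hoxc13 and Foxn1 act in matrix and shaft precursors, where in mice Foxn1 expression depends on Msx2 and on Hoxc13. Mice of hairless strains lose their coat after the first hair cycle and keep altered follicles in the skin, which limits them as a model of normal hair growth. The labels do not name the allele carried by Hos:HR-1.

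The comparison of diets asks whether 1 week of collagen hydrolysate altered the expression of these genes in skin. No difference between the diets passed the test in any of the 10 genes. By limma's moderated test, 0 of the 10 genes passed an adjusted p of 0.05, as did 0 of 18193 genes (0%), and 0 of the 18 probe sets among 45037 (0%). At an unadjusted p under 0.05 there were also 0 of the 10 genes, against 635 of all genes (3.49%). The collagen and control arrays overlapped in each of the 18 probe sets, where 2.02% of all genes had no overlap. As deposited, 7 of the 10 genes had a lower mean in the collagen arrays (47.1% of all genes did) and 3 a higher one (52.9% of all genes), but 3 of 10 were lower after quantile normalization (34.4% of all genes) and 0 of 10 after each array was centred on its median (5.38% of all genes). After quantile normalization some genes differed by rounding only and count as higher, so 34.4% is not a plain share of direction. As deposited, the median t of the 10 genes was -0.44, beside 0.07 for all genes. The adjusted p of each of the 10 was 0.999 over all genes by limma. The collagen arrays had the larger SD in 5 of the 10 genes, against 55.9% of all genes.

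**Figure D1:**
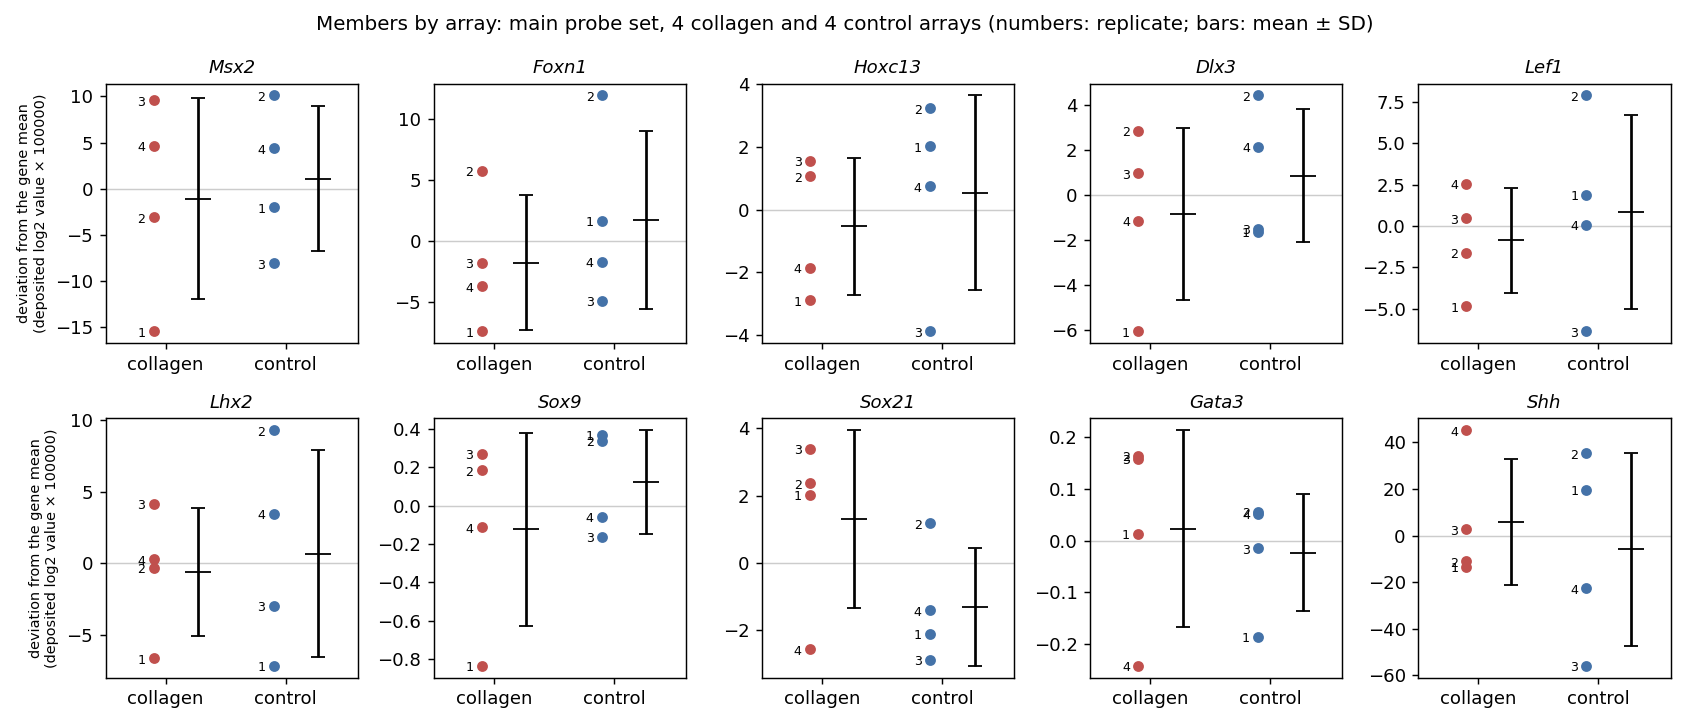
Deviation of each array from the gene's mean over 8 arrays (vertical axis, deposited log2 values in units of 1e-05) for the main probe set of the 10 genes, with 4 collagen arrays to the left of 4 control arrays; numbers are replicates and bars show mean ± SD. The diets overlap in every panel, control 2 is the highest array in 6 panels, and collagen 1 and control 3 are each the lowest in 4.

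The 4 homeobox factors of the group are Msx2, Dlx3, Hoxc13 and Lhx2. Msx2, needed in mice for hair shaft differentiation and regular cycling, lay at 8.09422, 8.09435, 8.09447 and 8.09442 in collagen 1 to 4, and 8.09436, 8.09448, 8.09430 and 8.09442 in control 1 to 4. Collagen 1 was the lowest array and control 2 the highest, and each diet spanned most of the range of both. The difference, collagen minus control, was -2.17e-05 ± 6.48e-05 (SE), or -0.23 within-group SD, with a 95% interval of -1.86 to 1.41 SD. Dlx3, which acts in shaft and inner root sheath precursors, had 8.54704, 8.54713, 8.54711 and 8.54709 in collagen 1 to 4, and 8.54709, 8.54715, 8.54709 and 8.54713 in control 1 to 4. Here too collagen 1 was lowest and control 2 highest, and the difference was -1.70e-05 ± 2.33e-05 (SE), or -0.49 within-group SD (interval -2.13 to 1.14 SD).

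Hoxc13, a factor that controls hair keratin genes, lay at 9.52666, 9.52669, 9.52670 and 9.52667 in collagen 1 to 4, and 9.52670, 9.52672, 9.52665 and 9.52669 in control 1 to 4. Control 3 and collagen 1 were the lowest arrays and control 2 the highest. The difference was -1.06e-05 ± 1.83e-05 (SE), or -0.40 within-group SD (interval -2.03 to 1.24 SD). Lhx2, a LIM homeobox factor of follicle stem cells, lay at 8.88874, 8.88881, 8.88885 and 8.88881 in collagen 1 to 4, and 8.88874, 8.88890, 8.88878 and 8.88884 in control 1 to 4, with control 1 and collagen 1 lowest. Its difference of -1.29e-05 ± 4.10e-05 (SE), or -0.21 within-group SD, was the one closest to 0, in SD, among the 10 genes.

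Promoter windows, 250 bases before to 50 after an annotated start, were given for 6 of the 10 genes (Msx2, Foxn1, Lef1, Lhx2, Sox21 and Gata3) in the RefSeq table of build GRCm38.p6, which is used for these sequences only. Those of Msx2 and Lhx2 are shown because this pair had the second highest correlation over the arrays, described below, and is the highest pair in which both genes have a window. The capitals mark CpG dinucleotides, of which the Msx2 window at chr13:53472731-53473030 (minus strand) holds 22 and the Lhx2 window at chr2:38339031-38339330 (plus strand), the upstream one of 2, holds 34. A median window of all 32851 has 7 CpG, and 23.1% have at least 22 and 7.73% at least 34.
Msx2: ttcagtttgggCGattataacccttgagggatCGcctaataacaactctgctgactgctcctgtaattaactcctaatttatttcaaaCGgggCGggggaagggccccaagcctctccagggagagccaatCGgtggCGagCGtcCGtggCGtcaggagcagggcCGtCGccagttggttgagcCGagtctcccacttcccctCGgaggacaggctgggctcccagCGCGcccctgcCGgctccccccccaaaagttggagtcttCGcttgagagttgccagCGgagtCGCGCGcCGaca
Lhx2: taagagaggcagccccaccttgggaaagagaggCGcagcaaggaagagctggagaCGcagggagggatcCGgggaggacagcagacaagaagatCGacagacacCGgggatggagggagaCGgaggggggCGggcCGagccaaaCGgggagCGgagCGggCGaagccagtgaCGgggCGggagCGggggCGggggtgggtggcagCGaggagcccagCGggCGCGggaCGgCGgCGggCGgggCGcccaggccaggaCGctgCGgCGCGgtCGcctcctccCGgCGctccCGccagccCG
A search on both strands for words that Tcf and Lef factors can bind, which were CTTTGAA or CTTTGAT or else CTTTGTA or CTTTGTT, found a match in 1 of the 10 windows of these 6 genes, against 16.9% of all windows. It lay in the most downstream of 4 Lef1 windows, at chr3:131156135-131156165 (plus strand shown), with the match in capitals as the reverse complement of CTTTGTA.
Lef1: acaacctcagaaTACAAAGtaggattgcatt

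Foxn1, the forkhead factor mutated in nude mice and needed for shaft keratinisation, lay at 7.98866, 7.98879, 7.98871 and 7.98869 in collagen 1 to 4, and 7.98875, 7.98885, 7.98868 and 7.98871 in control 1 to 4. Control 2 stood highest and collagen 1 lowest. The difference was -3.51e-05 ± 4.40e-05 (SE), or -0.54 within-group SD (interval -2.18 to 1.09 SD). Lef1, a DNA-binding partner of beta-catenin in Wnt signalling, had 8.68345, 8.68348, 8.68350 and 8.68352 in collagen 1 to 4, and 8.68352, 8.68358, 8.68344 and 8.68350 in control 1 to 4. The 4 collagen arrays of Lef1 fell between control 3 and control 2, so that the control group was the wider one, with an SD of 3.16e-05 in the collagen arrays and 5.86e-05 in the control arrays. The difference was -1.73e-05 ± 3.20e-05 (SE), or -0.37 within-group SD (interval -2.002 to 1.27 SD).

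Sox9, an HMG-box factor of bulge and outer root sheath progenitors, lay at 10.075259, 10.075269, 10.075270 and 10.075266 in collagen 1 to 4, and 10.075271, 10.075270, 10.075265 and 10.075266 in control 1 to 4. Collagen 1 was below every other array, and the 7 others lay close together. The difference was -2.45e-06 ± 2.76e-06 (SE), or -0.61 within-group SD, and without collagen 1 it was -7.75e-08. Sox21, a factor of the hair shaft cuticle whose loss in mice causes cyclic hair loss, had 10.32978, 10.32978, 10.32979 and 10.32973 in collagen 1 to 4, and 10.32974, 10.32977, 10.32973 and 10.32974 in control 1 to 4. Collagen 1, 2 and 3 lay above all 4 control arrays and collagen 4 below 3 of them. The difference, 2.61e-05 ± 1.53e-05 (SE), or 1.16 within-group SD, was the largest of the 10 main probe sets in SD (interval -0.47 to 2.80 SD, unadjusted p = 0.135 by limma). It kept its sign without each array in turn and under both scalings. The other Sox21 probe set, with a mean of 9.88, differed by only 0.13 within-group SD.

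Gata3, a zinc finger factor of the inner root sheath that skin T cells and epidermis also express, lay at 10.746704, 10.746706, 10.746706 and 10.746702 in collagen 1 to 4, and 10.746702, 10.746705, 10.746704 and 10.746705 in control 1 to 4. The whole range was 4.06e-06, the narrowest of the 10 main probe sets, with collagen 4 and control 1 low. The difference was 4.65e-07 ± 1.09e-06 (SE), or 0.30 within-group SD (interval -1.37 to 1.96 SD). Of 9 T cell markers, 6 were measured, all with a mean at or above 8.193. Their mean z value lay between -1.06 (collagen 2) and 1.23 (collagen 4) in the collagen arrays and between 0.10 and 0.38 in the control arrays, and Gata3 was lowest where that score was highest. Across the 8 arrays the relation was r = -0.81, rho = -0.74, exact permutation p = 0.016 and 0.046, -0.50 without collagen 2 and collagen 4. Its adjusted p over the 180 relations with scores was 0.31, and its part in the Gata3 values was not tested.

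Shh had the widest range of the 10 main probe sets, 0.00101, and lay at 8.08856, 8.08859, 8.08873 and 8.08915 in collagen 1 to 4, and 8.08890, 8.08905, 8.08814 and 8.08847 in control 1 to 4. Collagen 4 and control 2 stood high and control 3 low, with an SD of 2.72e-04 in the collagen arrays and 4.14e-04 in the control arrays. The difference was 1.17e-04 ± 2.38e-04 (SE), or 0.34 within-group SD (interval -1.30 to 1.97 SD). It turned negative without collagen 4 (-1.37e-05) and without control 3 (-4.93e-05). Ptch1, the receptor for Shh and itself a target of the pathway, differed by -6.12e-06 ± 1.19e-05 (SE, as for each gene below), and Gli1, a transcription factor induced by the pathway, by -1.13e-05 ± 1.81e-05. Both had their highest value in control 2, whereas collagen 4 was the second highest in each. Of 15 Hedgehog pathway genes measured out of 16 listed, none passed, 4 were higher and 11 lower with collagen as deposited, and the median t was -0.56. After quantile normalization 10 were higher and 5 lower, and after median centring all 15 were higher. The smallest p values of the list belonged to the ligands Dhh (-6.17e-06 ± 3.08e-06) and Ihh (-9.86e-07 ± 6.68e-07), with unadjusted p = 0.088 and 0.19 by limma.

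**Figure D2:**
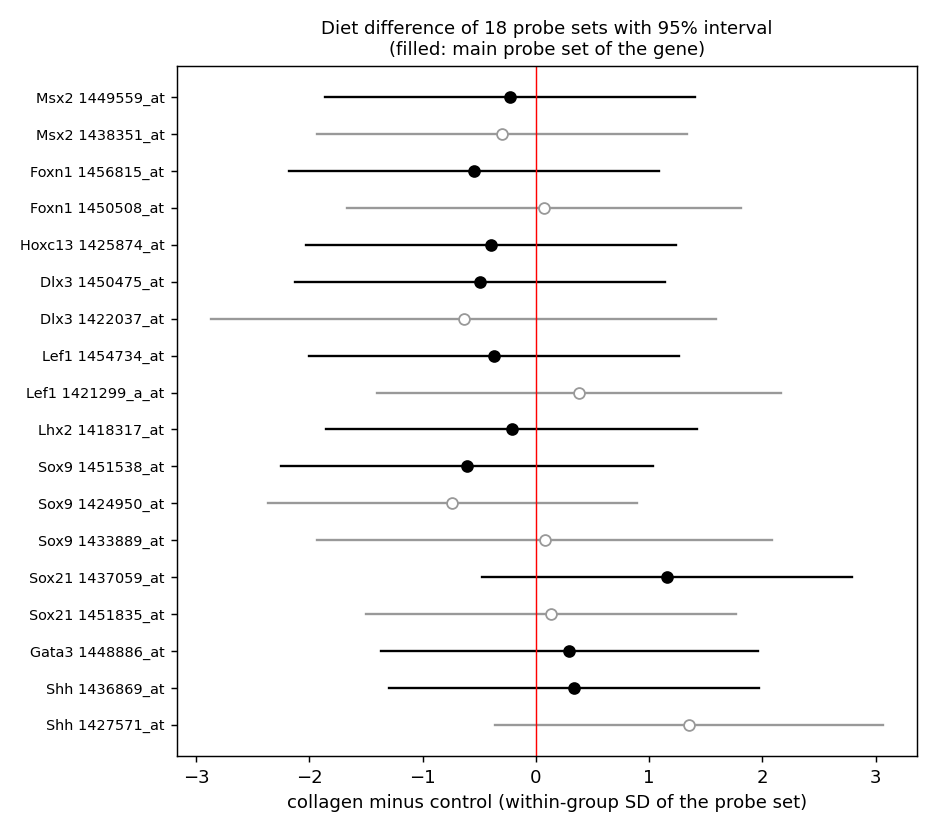
Difference between collagen and control arrays in multiples of the within-group SD (horizontal axis) with its 95% interval for 18 probe sets; filled points are the main probe set of each gene and open points its other probe sets. Each interval includes 0.

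The other 8 probe sets of these genes mostly varied less and did not follow the main one closely. Their ranges over the 8 arrays lay between 9.22e-07 and 3.86e-05, against 4.06e-06 to 0.00101 for the main probe sets. The second Foxn1 probe set followed the first (r = 0.71, rho = 0.74, exact permutation p = 0.043 and 0.046, adjusted over the 9 pairs of probe sets 0.39), with r = 0.49 without control 2 and collagen 2. In the other 8 pairs of probe sets of the same gene, r lay between -0.26 (Lef1) and 0.56 (Sox21), with unadjusted exact permutation p from 0.15 to 0.94. The second Shh probe set was higher with collagen by 1.18e-06 ± 6.21e-07, or 1.35 SD (unadjusted p = 0.103 by limma). That of Sox21 was higher by 1.89e-06 ± 9.57e-06, or 0.13 SD. Those of Msx2 and Dlx3, and 1 of the 2 further Sox9 probe sets, shared the lower mean with collagen of the main one, and those of Foxn1 and Lef1, and the other one of Sox9, had the opposite sign.

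Several of these genes had their extremes in the same arrays. Control 2 held the highest value in 6 of the 10 genes (Msx2, Foxn1, Hoxc13, Dlx3, Lef1 and Lhx2), while it held the highest in 10.4% of all genes. Collagen 1 held the lowest in Msx2, Foxn1, Dlx3 and Sox9, against 17.6% of all genes, and control 3 the lowest in Hoxc13, Lef1, Sox21 and Shh, against 10.5% of all genes. Over the 45 pairs of main probe sets, r was above 0 in 43 with a median of 0.54, and 15 pairs had an unadjusted exact permutation p under 0.05. None of the 45 passed after Benjamini-Hochberg adjustment over the pairs, where the smallest adjusted p was 0.101. The median r was 0.21 after quantile normalization, 0.86 after median centring and 0.35 without control 2, and 32 pairs passed after median centring, which adds 1 shared shift to every gene. All values come from the same 8 arrays, so the pairs are not independent. The share of such pairs among all genes was not computed, so these counts are not read as a trait of the 10 genes.

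The highest correlation was between Lef1 and Shh, with r = 0.84 (exact permutation p = 0.0101, adjusted over the 45 pairs 0.101) and rho = 0.90 (exact permutation p = 0.00456, adjusted 0.0989). Without control 2 and control 3, the arrays farthest from the Lef1 median, r was 0.71, and in deviations from the diet means it was 0.92. Msx2 and Lhx2, whose promoter windows are printed above, had r = 0.84 (exact permutation p = 0.0101, adjusted over the 45 pairs 0.101) and rho = 0.83 (exact permutation p = 0.0154, adjusted 0.0989). Their r was 0.83 without control 3 and collagen 1, and lay between 0.80 and 0.93 when each array was left out in turn. Dlx3 and Lhx2 followed with r = 0.83 (0.65 without control 2 and collagen 1). Foxn1 had r = 0.81 with Hoxc13, one of the factors its expression depends on in mice, and 0.81 with Dlx3. With Msx2, the other of those factors, Foxn1 had r = 0.54 and rho = 0.55 (exact permutation p = 0.17 for each), and r was 0.06 without control 3 and collagen 1. Without control 2 and collagen 2 the values with Hoxc13 and Dlx3 were 0.88 and 0.61. Msx2 and Lef1 completed the 6 highest pairs with r = 0.81 (0.58 without control 3 and collagen 1). Spearman's rho of the last 4 of these 6 pairs (Dlx3 with Lhx2, Foxn1 with Hoxc13, Foxn1 with Dlx3, Msx2 with Lef1) was 0.81, 0.86, 0.76 and 0.86, with exact permutation p from 0.011 to 0.016 for r, from 0.011 to 0.037 for rho, and an adjusted p of 0.101 for r in each.

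**Figure D3:**
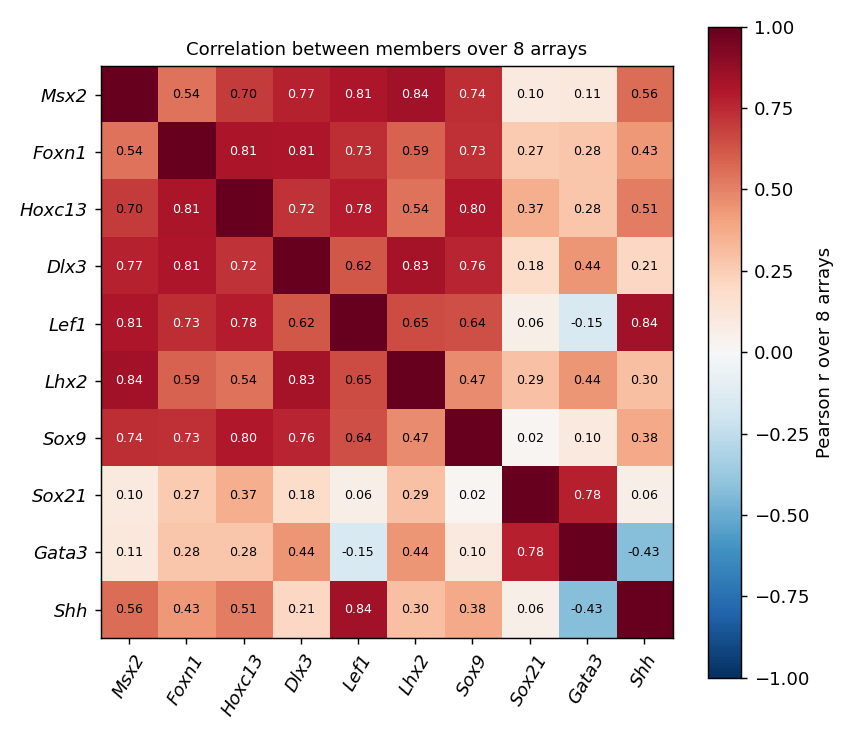
Pearson correlation between the main probe sets of the 10 genes over the 8 arrays (colour and number in each cell; rows and columns are genes). Msx2, Foxn1, Hoxc13, Dlx3, Lef1, Lhx2 and Sox9 have r between 0.47 and 0.84 with each other, and the lowest cell is Gata3 with Shh (-0.43).

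Among Msx2, Foxn1, Hoxc13, Dlx3, Lef1, Lhx2 and Sox9, a set picked after the values were seen and so not tested, the 21 correlations lay between 0.47 and 0.84 with a median of 0.73. Sox21 and Gata3 varied with each other (r = 0.78, rho = 0.83, 0.82 for r without control 3 and collagen 3, exact permutation p = 0.022 and 0.015, adjusted over the 45 pairs 0.102). The 4 lowest correlations were those of Gata3 with Shh (r = -0.43, rho = -0.19), Gata3 with Lef1 (r = -0.15, rho = -0.12), Sox9 with Sox21 (r = 0.02, rho = 0.24) and Sox21 with Shh (r = 0.06, rho = 0.05), with exact permutation p from 0.29 to 0.98 for r and from 0.58 to 0.93 for rho. Without the 2 arrays farthest from the median of one gene of the pair, r was 0.91 for Sox9 and Sox21 (without control 1 and collagen 1) and 0.42 for Gata3 and Shh (without control 1 and collagen 4), so the low values of both rest on those arrays. It was lower still for Lef1 and Gata3, at -0.53 without control 2 and control 3, and for Sox21 and Shh, at -0.43 without control 3 and collagen 3.

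Genes of the follicle layers in which these factors act were set beside them, array by array. Each array was scored by the mean z value of 14 inner root sheath and companion layer genes and of 21 hair shaft genes. The list of 14 also holds Msx1, which is in the list of other follicle transcription factors too. It further holds Ctsc and Crct1, with means of 12.67 and 13.42. The inner root sheath score was -1.47, -0.13, 0.72 and -0.21 in collagen 1 to 4, and 0.59, 0.80, -0.53 and 0.22 in control 1 to 4. Collagen 1 was lowest and control 2 highest, as in 3 of the 10 genes (Msx2, Foxn1 and Dlx3). The score ran with Sox9 (r = 0.94, rho = 0.90, exact permutation p = 0.0023 and 0.0046, 0.80 without control 2 and collagen 1), with Msx2 (r = 0.87, rho = 0.83, exact permutation p = 0.0053 and 0.015, 0.62 without control 2 and collagen 1) and with Hoxc13 (r = 0.86, rho = 0.93, exact permutation p = 0.0058 and 0.0022, 0.86 without control 2 and collagen 1). It also ran with Dlx3 (r = 0.76, rho = 0.62, exact permutation p = 0.028 and 0.11, 0.14 without control 2 and collagen 1) and with Lef1 (r = 0.75, rho = 0.71, exact permutation p = 0.032 and 0.058, 0.62 without control 2 and collagen 1). The hair shaft score, -1.37, -0.37, 1.39 and -0.58 in collagen 1 to 4 and 0.74, 0.34, -0.54 and 0.39 in control 1 to 4, ran with Sox9 (r = 0.81, rho = 0.81, exact permutation p = 0.011 and 0.022, 0.69 without collagen 1 and collagen 3), with Hoxc13 (r = 0.75, rho = 0.71, exact permutation p = 0.034 and 0.058, 0.77 without collagen 1 and collagen 3) and with Msx2 (r = 0.75, rho = 0.55, exact permutation p = 0.033 and 0.17, 0.35 without collagen 1 and collagen 3). Of 180 relations of the 10 genes with 18 scores, 20 had an unadjusted exact permutation p under 0.05 for r, and each of the 20 is given. None of the 180 passed after adjustment, and the inner root sheath values of Sox9, Msx2 and Hoxc13 had adjusted p of 0.14, 0.21 and 0.21. Sox21 and Gata3 had r of 0.04 and 0.10 with the inner root sheath score, with exact permutation p of 0.92 and 0.81.

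Markers of other tissue and a sign of RNA quality ran alongside a few of the genes, in relations that did not pass that adjustment either. The mean z value of 10 skeletal muscle markers, all measured and all with a mean at or above 8.193, lay between -1.42 and 0.12 in the collagen arrays and between -0.57 and 1.29 in the control arrays. It ran with Dlx3 (r = 0.82, rho = 0.71, exact permutation p = 0.014 and 0.058, 0.71 without control 4 and collagen 1) and Lhx2 (r = 0.74, rho = 0.71, exact permutation p = 0.036 and 0.058, 0.75 without control 4 and collagen 1). Of the 10 muscle markers, 9 were lower with collagen as deposited, with a median t of -1.38 beside 0.07 for all genes. None passed the adjusted limma test. After quantile normalization 5 were lower, where differences by rounding count as higher, and after median centring 8 were lower. The Gapdh 3' minus 5' probe set difference, which is read as a sign of RNA quality, hardly differed between arrays. It lay between 0.289775 (control 4) and 0.290578 (collagen 1), with control 1 second highest at 0.29041. This difference ran against Dlx3 (r = -0.77, rho = -0.64, exact permutation p = 0.022 and 0.096, -0.30 without control 1 and collagen 1) and Lhx2 (r = -0.73, rho = -0.52, exact permutation p = 0.039 and 0.2, -0.21 without control 1 and collagen 1). Sox21 ran with the score of 7 melanocyte markers (r = 0.95, rho = 0.93, exact permutation p = 0.00069 and 0.0022, 0.94 without control 3 and collagen 3), the relation with the smallest p of the 180 and an adjusted p of 0.12. That score lay between -0.24 and 0.85 in the collagen arrays and between -0.90 and 0.21 in the control arrays, and 5 of the 7 markers had a mean at or above 8.193.

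Sox9 ran against the score of 6 mast cell and innate lymphoid markers (r = -0.87, rho = -0.93, exact permutation p = 0.002 and 0.0022, -0.92 without control 4 and collagen 1), with an adjusted p of 0.14. That score lay between -0.33 and 1.04 in the collagen arrays and between -0.72 and 0.79 in the control arrays, and 5 of the 6 markers had a mean at or above 8.193. The sebaceous gland score, of 6 markers measured out of 8, ran against Lef1 (r = -0.84, rho = -0.83, exact permutation p = 0.0075 and 0.015, -0.52 without control 2 and collagen 4) and Shh (r = -0.76, rho = -0.74, exact permutation p = 0.029 and 0.046, -0.43 without control 2 and collagen 4). It lay between -0.64 and 0.64 in the collagen arrays and between -1.17 and 0.39 in the control arrays, with control 2 lowest. Sox21 ran against the T cell score (r = -0.79, rho = -0.69, exact permutation p = 0.018 and 0.069, -0.78 without collagen 2 and collagen 4) and the score of 5 endothelial markers (r = -0.72, rho = -0.69, exact permutation p = 0.029 and 0.069, -0.79 without collagen 1 and collagen 2). The endothelial score lay between -1.48 and 0.30 in the collagen arrays and between 0.34 and 0.68 in the control arrays. The diets thus did not overlap in this score, by the narrow gap from 0.30 to 0.34, while each of the 5 markers by itself did overlap. Of all genes 2.02% had no overlap, and no such share was computed for scores. All 5 markers were lower with collagen as deposited but only 2 after either scaling. Gata3 ran against the score of the 15 Hedgehog pathway genes (r = -0.73, rho = -0.57, exact permutation p = 0.038 and 0.15, -0.46 without collagen 2 and collagen 4). The part of these cell types, or of RNA quality, in the values of Dlx3, Lhx2, Sox9, Lef1, Shh, Sox21 and Gata3 was not tested.

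**Figure D4:**
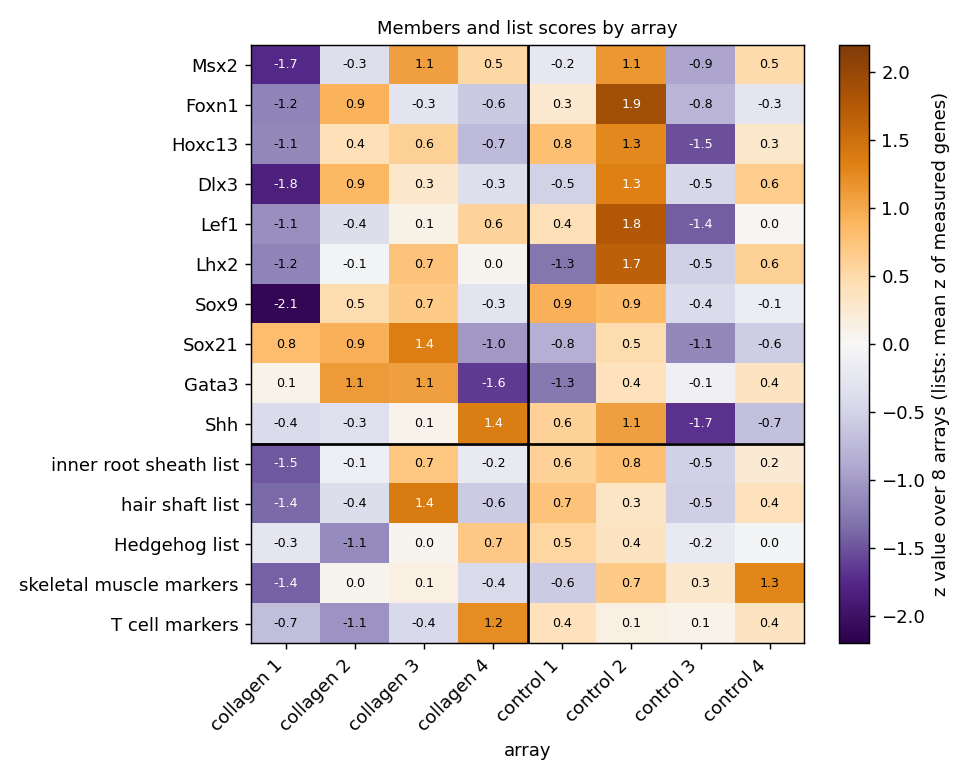
Values of the 10 genes and mean scores of 5 gene lists in each array (colour and number, z value over 8 arrays), with collagen arrays left of the vertical line and control arrays right of it. Collagen 1 is below the mean in 8 of the 10 genes and control 2 above the mean in all 10.

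Among the 29 measured of 33 other follicle transcription factors, 16 were higher and 13 lower with collagen and none passed the adjusted test, with a median t of 0.24 beside 0.07 for all genes (18 and 11 after quantile normalization, 28 and 1 after median centring). After quantile normalization the median t of this list was 5.12e-10, so some of the 18 differed by rounding only. As deposited, its smallest p values were those of Hr, the hairless corepressor (-6.10e-06 ± 2.06e-06, unadjusted p = 0.023 by limma), and Trp63, the p63 master regulator of epidermis (6.20e-05 ± 2.59e-05, unadjusted p = 0.051 by limma). Of 26 Wnt, BMP, EDA, FGF and Notch signal genes, 13 were higher and 13 lower (24 and 2 after median centring), none passed, and Hgf (5.42e-07 ± 3.43e-07) and Eda (-1.33e-06 ± 9.04e-07) had the smallest p. The shaft genes were lower in 17 of 21 and the inner root sheath genes in 13 of 14, with median t of -0.90 and -0.92. After quantile normalization the 2 lists had 14 and 10 lower genes, where 34.4% of all genes were lower and differences by rounding count as higher. After median centring they again had 14 and 10. The 5.38% of all genes that were lower then is no like measure. Array medians differed by -5.52e-05 (collagen minus control), beside a median range of 9.165e-06 over all genes, so the shared shift sets that share. It cannot turn differences as large as that of Krtap7-1. Both lists had their lowest score in collagen 1 (-1.37 and -1.47). No gene of the 2 lists passed, and Krt84 (-2.22e-06 ± 1.09e-06), Krtap7-1 (-0.0427 ± 0.0275), Ctsc (-2.36e-05 ± 1.19e-05) and Msx1 (1.92e-06 ± 1.15e-06) had the smallest p.

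The genes whose values ran most like each of the 10 over the 8 arrays were taken from 11588 other genes with a mean at or above 8.193, by Pearson r, as a description with no test. They were Sema3g (0.99), Krt75 (0.97) and Ly6g6g (0.97) for Msx2, and Krt35 (0.90), Golga7b (0.89) and Rad52 (0.88) for Hoxc13. For Lhx2 they were Dbndd2 (0.98), Sdr39u1 (0.94) and Ints14 (0.94), for Dlx3 Nol3 (0.95), Pdlim3 (0.94) and Fam214b (0.94), and for Foxn1 Cyb5d1 (0.92), Mllt11 (0.91) and Nosip (0.91). Lef1 ran most like Cyp2s1 (0.94), Tbx1 (0.93) and Zfp771 (0.92), and Shh most like Ascl2 (0.98), Ncstn (0.95) and Plod2 (0.92). For Sox9 they were Car6 (0.97), Kif26a (0.96) and Zfp523 (0.95), for Sox21 Inpp5a (0.97), Srsf3 (0.96) and Traf3ip2 (0.95), and for Gata3 Gnl3l (0.96), Bpnt2 (0.96) and Carnmt1 (0.94). Between 1 (Hoxc13) and 27 (Dlx3) of the 11588 genes had r at or above 0.9 with a given gene. Of the alike genes named here, only Krt75 (companion layer) and Krt35 (hair shaft) belong to a list used above. The others were not assigned to a tissue, so these names are not read as a sign of the follicle.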

How the data were processed

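Total RNA from powdered frozen dorsal skin was labelled with biotin and run on 1-colour arrays (8 in all), per the labels' protocols. The authors deposited log2 values, a scale read from the values themselves (6.56 to 14.46). The submitters' processing notes name R 2.7.2, and the methods of summary and normalization were not stated in the sources used here. Values were used as deposited, without the 64 control probe sets. The platform annotation gave 1 symbol for 34945 of 45037 probe sets, several for 932 and none for 9160, and matching to the GRCm38.p6 gene table changed 0 symbols. The diets were compared by limma's moderated test (version 3.58.1, R 4.3.3; collagen minus control, two-sided), in 18193 genes and in all probe sets, with Benjamini-Hochberg adjustment over each table, and intervals use the moderated SE. The number of arrays limits the precision. On simulated data 200 of 18193 genes were changed, with shifts of 2, 4, 8 and 16 within-group SD in equal parts. Shifts of 2 SD were called in 4.4% of the genes given that shift, 4 SD in 32.4%, 8 SD in 94% and 16 SD in 100%. The mean number of false calls was 6.2. The simulated noise was normal and independent between genes, with the SD of each gene taken from these data. Variation shared between genes was not simulated, so these values may not hold for the arrays themselves. Correlations over the 8 arrays were tested by exact permutation of the pairings, two-sided, with Python 3.11.15 and numpy 2.4.6. Figures were drawn with matplotlib 3.10.9. The genes and lists were chosen with earlier results of these data known. Named genes are all 10 genes, Ptch1 and Gli1, the 2 smallest p per list of follicle genes, the 6 highest and 4 lowest pairs, and the 3 most alike genes per gene. Alternatives were each array left out, 2 scalings, a filter on dim probe sets, a replicate block, 2 variance models, 2 covariates and other probe sets.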

Additional observations from a re-analysis of the deposited data

How the results depend on the processing

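No gene of the 10 passed the adjusted limma test in any of 165 combinations of a gene and another setting, where adjusted p ran from 0.526 to 1. The count of genes called over all 18193 stayed at 0 in each alternative (446 to 1552 genes at unadjusted p under 0.05 with 1 array left out, and 72 after median centring), and that of probe sets was 0 except after quantile normalization, where limma called 2, Nrp1 lower and Cep97 higher, named after their values were seen. Direction did not hold in 30 of the 165 combinations, 10 of which left out 1 array. The replicate block, the 2 variance models and the filter on dim probe sets leave the difference as it is, so they could not turn it. Median centring turned all 7 lower genes, to 3.35e-05 (Msx2), 2.00e-05 (Foxn1), 4.45e-05 (Hoxc13), 3.82e-05 (Dlx3), 3.78e-05 (Lef1), 4.23e-05 (Lhx2) and 5.27e-05 (Sox9). The array medians differ between diets by -5.52e-05 (collagen minus control) and span 3.31e-04, and 1.04e-04 without collagen 1, and 9 of the 10 genes have a range below 3.31e-04. Centring adds this 1 shared shift to every gene. By the same construction the pairs past the threshold numbered 32 after median centring, against 0 as deposited. Quantile normalization gave 1.58e-05 (Foxn1), 2.73e-05 (Dlx3), 1.82e-04 (Lef1) and 8.84e-07 (Lhx2). The Gapdh covariate gave 2.22e-05 (Msx2), 4.44e-06 (Dlx3) and 2.48e-05 (Lhx2), and the muscle score covariate 5.04e-05, 1.51e-05 and 4.16e-05 for the same genes. Other probe sets gave 5.38e-08 (Foxn1), 2.43e-07 (Lef1) and 3.03e-08 (Sox9). The cause of these reversals was not tested, apart from that of centring. With 1 array left out the difference ran from -5.72e-05 to 2.62e-05 for Msx2, -2.94e-05 to 4.14e-07 for Dlx3, -4.14e-05 to 6.04e-06 for Lef1, -3.90e-05 to 1.60e-05 for Lhx2, -7.75e-08 to 1.35e-06 for Gata3 and -4.93e-05 to 2.55e-04 for Shh, and the other 4 genes kept their sign. The arrays that turned a sign were collagen 1 (Msx2, Dlx3 and Lhx2), control 2 (Msx2, Lef1 and Lhx2), collagen 2 and control 1 (Gata3), and collagen 4 and control 3 (Shh).

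Pairs past the threshold numbered 1 with all probe sets of a gene averaged (Msx2 and Hoxc13, r = 0.95, exact permutation adjusted p = 0.0402), 1 in deviations from the diet means (Lef1 and Shh, r = 0.92, exact permutation adjusted p = 0.0380) and 0 to 1 with 1 array left out. Hoxc13 and Sox9 passed without collagen 1 or control 3, and Hoxc13 and Lef1 without collagen 4. The median r over the 45 pairs was 0.21 after quantile normalization and 0.35 without control 2. The filter on dim probe sets leaves out Msx2, Foxn1 and Shh. With the replicate number of the labels as a replicate block, 0 genes and 0 probe sets were called. Same-numbered arrays had correlations of deviations of 0.36, 0.05, 0.22 and 0.01, so not each was over 0.1. Collagen 1 and collagen 3 were closest to the control of their own number, collagen 2 to control 3 and collagen 4 to control 2, and the arrays were not treated as pairs. The block changed no call, but it did change the p values. Genes at an unadjusted limma p under 0.05 numbered 1110 with the block and 635 without it. The smallest adjusted p over all genes was 0.244 with the block and 0.999 without it.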
